A study of Canis lupus familiaris with 33 samples.

Results

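The mitochondrial genome of the dog carries its own genes, and the deposited count table lists 37 of them. They were taken as all rows on the chromosome named MT, which gave 37 of the 30951 genes in the table. By length and position they fell into 3 classes: 2 ribosomal RNAs (rRNAs), 13 messenger RNAs (mRNAs) and 22 transfer RNAs (tRNAs). The mRNAs and rRNAs are the genes of at least 200 bp, with the rRNAs ending before base 2700, and the tRNAs are the genes under 200 bp. The choice used no measured value.

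Mitochondrial DNA is transcribed from both strands as long precursor RNAs that run through many genes. In mammals most rRNAs and mRNAs are flanked by tRNAs, and enzymes that cut out the tRNAs release the other RNAs. The mRNAs encode subunits of the respiratory chain and of ATP synthase, the rRNAs form the ribosome that translates them, and the tRNAs supply that ribosome with amino acids. Brain is a tissue with a high demand for oxidative phosphorylation.

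The study compared oligodendroglioma, a glial brain tumour, with healthy brain of dogs, and RNA from formalin-fixed paraffin-embedded (FFPE) tissue with RNA from fresh-frozen tissue. Tissue was collected post mortem, with a delay of 1 to 18 hours, and was either frozen or fixed in 10% buffered formalin and embedded in paraffin. The 33 total RNA libraries came from 25 dogs, 8 of which gave a library of each kind (5 with tumour, 3 control). Each library within a group was from a different dog. The 11 FFPE tumours were 9 of grade III and 2 of grade II, from 4 Boxers, 6 French Bulldogs and 1 dog of another breed. Ages of 4.7 to 12 years were stated in the FFPE labels of 9 of these dogs. The 10 FFPE control brains were from 4 Boxers, 5 French Bulldogs and 1 other dog, aged 2 to 8 years in the 5 dogs with a stated age. The 6 fresh-frozen tumours were 5 of grade III and 1 of grade II, from 1 Boxer, 3 French Bulldogs and 2 other dogs, aged 4.7 to 10 years in 5. The 6 fresh-frozen control brains were from 2 French Bulldogs and 4 other dogs, aged 2.8 to 10.2 years in 5.

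Library totals ran from 406406 to 32584840 counts, and FFPE libraries were shallower (median 4855197 counts in tumours and 3381606 in controls) than fresh-frozen ones (19264998 and 18958778). The FFPE libraries of control dog 60126 and tumour dog 60749 lay close to their own fresh-frozen libraries. Their log2 expression correlated at r = 0.992 and 0.977 with the dog's fresh-frozen library, against 0.756 to 0.943 in the other 6 dogs. Many, but not all, of the FFPE class shares, FFPE tumour tests and preservation tests are given with and without them. The table pairs no gene identifier with a gene name, so genes are given by class and position in the CanFam3.1 build, and the tissues could not be checked against cell type markers.

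The 37 genes fill the annotated mitochondrial sequence almost without gaps. Of the 36 neighbouring pairs, 12 overlapped, 14 abutted and 10 were separated, by 33 bp at most. The plus strand held both rRNAs, 12 mRNAs and 14 tRNAs. The minus strand held 1 mRNA, at MT:13582-14109, and 8 tRNAs. In the gene order shared by mammals the only mRNA of that strand encodes ND6, a subunit of complex I. The rRNAs lay at MT:70-1023 (954 bp) and MT:1091-2670 (1580 bp), the places of the small-subunit and the large-subunit rRNA in mammals. The tRNAs were 60 to 75 bp long.

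The mitochondrial genome took a large share of every library, with the mRNAs as the largest class on average in all 4 groups and a larger rRNA part in FFPE than in frozen tissue. It was 23.02% ± 8.36 of counts in FFPE tumours (SD, n = 11), 21.2% ± 8.12 in FFPE controls (n = 10), 9.37% ± 7.06 in fresh-frozen tumours (n = 6) and 14.1% ± 3.53 in fresh-frozen controls (n = 6). In bulk tissue, fewer cells of a type and less RNA per cell cannot be told apart. On average the mRNAs gave 65.4% and 65.3% of the mitochondrial counts in FFPE tumours and controls, and the rRNAs 34.3% and 33.6%. In fresh-frozen tumours and controls the mRNAs gave 93.0% and 91.7% and the rRNAs 6.81% and 8.01%. The tRNAs gave 0.0744% to 1.94% of the mitochondrial counts of single libraries. Without the FFPE libraries of dogs 60126 and 60749 the mitochondrial share was 24.4% ± 7.46 in FFPE tumours (n = 10) and 21.5% ± 8.56 in FFPE controls (n = 9), of which the rRNAs gave 36.8% and 35.9%.

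**Figure D1:**
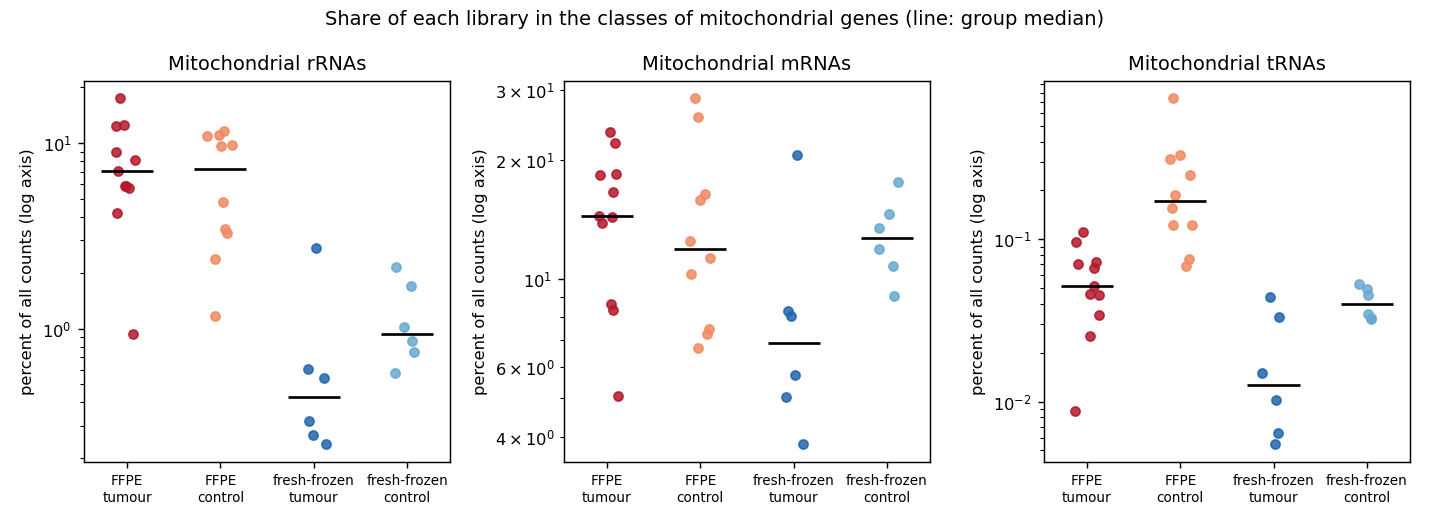
Percent of all counts (log axis) in the mitochondrial rRNAs, mRNAs and tRNAs, with a point for each library and a line at the group median. The rRNA share is lower in fresh-frozen than in most FFPE libraries, and the tRNA share is lower in tumours than in controls of the same preservation, with overlap.

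The rRNAs are the structural RNAs of the mitochondrial ribosome. Both together took 8.11% ± 4.58 of counts in FFPE tumours and 6.83% ± 4.17 in FFPE controls, and the range of 0.939% to 17.5% in the tumours covered that of the controls. With dogs 60126 and 60749 left out the shares were 8.83% ± 4.12 and 7.33% ± 4.10, and the ranges of 4.22% to 17.5% in tumours and 1.17% to 11.7% in controls still overlapped. They took 0.781% ± 0.959 in fresh-frozen tumours and 1.17% ± 0.610 in fresh-frozen controls. Of the 21 FFPE libraries, 18 had a higher rRNA share than any of the 12 fresh-frozen libraries, and so had 18 of the 19 without those of dogs 60126 and 60749. The balance between the rRNAs also differed by preservation. Per kilobase, the shorter rRNA stood at a median of 1.37 times the longer in FFPE tumours and 1.44 times in FFPE controls, but at 0.456 and 0.408 times in fresh-frozen tumours and controls. All but 1 of the 21 FFPE libraries exceeded every fresh-frozen library in this ratio. The exception was the FFPE-labelled library of dog 60126, at 0.195, beside 0.207 in its own fresh-frozen library.

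**Figure D2:**
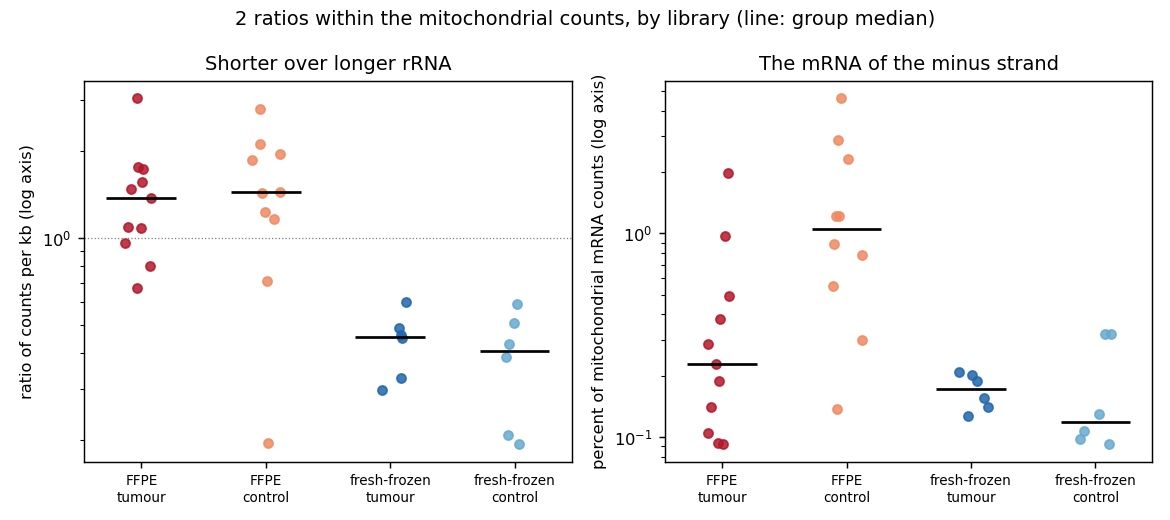
Ratio of the shorter to the longer rRNA in counts per kilobase (left, log axis, dotted line at 1) and percent of mitochondrial mRNA counts in the mRNA of the minus strand (right, log axis), with a point for each library and a line at the group median. The FFPE libraries lie above the fresh-frozen ones on the left except the control library at 0.195, and the FFPE controls have the highest median on the right.

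Levels of different genes were compared as CPM (counts scaled to a common library total) per kilobase of gene. The 681 bp mRNA at MT:7964-8644, the place of ATP6 (a subunit of ATP synthase) in the mammalian map, was the highest mRNA in 19 of 21 FFPE libraries, with medians of 40889.8 in tumours and 26414 in controls. The 684 bp mRNA at MT:7034-7717, the place of COX2 (a subunit of cytochrome c oxidase), was the highest in 7 of 12 fresh-frozen libraries, with medians of 18715 in tumours and 28177 in controls. These neighbours in the order did not separate in frozen tissue, where the ATP6 place was the highest in 3 libraries. The minus-strand mRNA was the lowest of the 13 in 31 of 33 libraries. Its median level was 781 in FFPE tumours, 1895 in FFPE controls, 204 in fresh-frozen tumours and 259 in fresh-frozen controls. From the highest to the lowest mRNA the medians spanned 52.4-fold in FFPE tumours, 13.9-fold in FFPE controls, 92.0-fold in fresh-frozen tumours and 109-fold in fresh-frozen controls.

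On the same scale per length, the highest tRNA in FFPE tissue was that at MT:4956-5023 on the plus strand, the place of the tryptophan tRNA in the mammalian map, with medians of 1408 in tumours and 5337 in controls. In frozen tissue the highest was that at MT:15323-15392, the place of the threonine tRNA, with medians of 551 in tumours and 1192 in controls. The lowest in FFPE tissue was the minus-strand tRNA at MT:5280-5347, the place of the tyrosine tRNA, with medians of 5.50 in tumours and 21.1 in controls. It had no count in 2 FFPE tumours and 1 FFPE control. Its neighbour at MT:5212-5279 on the same strand, the place of the cysteine tRNA, stood at 353 in FFPE tumours and 3324 in FFPE controls. Mature tRNAs are short and modified, and whether these counts come from mature tRNAs or from uncut precursors was not tested.

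**Figure D3:**
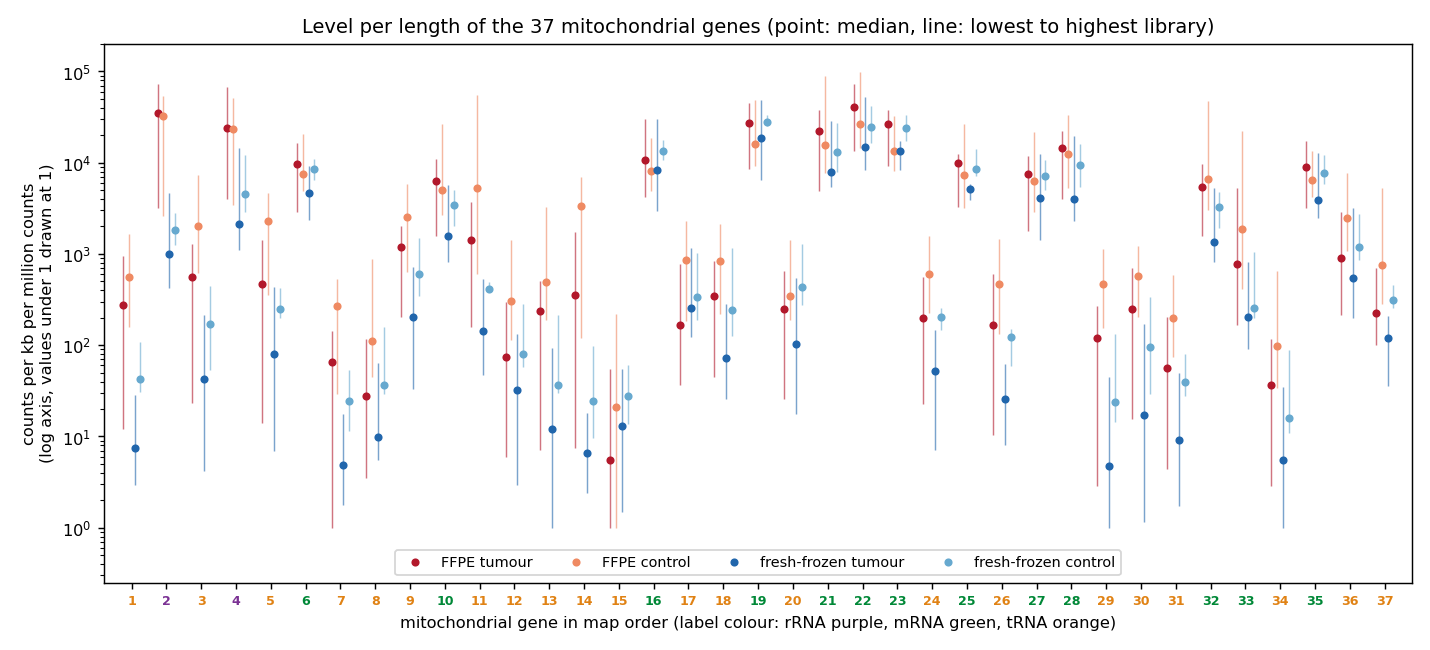
Level of the 37 mitochondrial genes in map order, in CPM per kilobase (log axis), with a point at the median and a line from the lowest to the highest library of each of the 4 groups. Gene 33 is the minus-strand mRNA, lowest of the mRNAs in all groups, and genes 14 and 15 are the neighbouring minus-strand tRNAs with FFPE control medians of 3324 and 21.1.

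The comparison of FFPE tumours with FFPE controls asked which genes differ between oligodendroglioma and healthy brain. The tRNAs were lower in the tumours as a class, while the rRNAs and nearly all mRNAs did not pass the test. Of the 36 genes with enough counts to be tested, 20 were lower in tumours and 0 higher at an adjusted p under 0.05 in edgeR's quasi-likelihood test over 13338 genes. Of all genes tested, 11.1% were lower and 10.1% higher. The tRNAs supplied 19 of these 20 calls, out of 21 tested, with a median log2 fold change of -2.02 beside 0.02 over all genes. All 7 tested tRNAs of the minus strand and 12 of 14 of the plus strand were called. The tRNA at MT:5280-5347 did not reach the count filter.

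The tRNA share of counts ran from 0.00878% through a median of 0.0518% to 0.111% in FFPE tumours, and from 0.0680% through 0.171% to 0.739% in FFPE controls. Thus 7 of 11 tumours lay below every control, and 8 of 10 controls lay above every tumour. As a share of the mitochondrial counts alone, the tRNAs had medians of 0.220% in tumours and 1.01% in controls, with 8 of 11 tumours below every control. The lowest tumour was dog 60749 and the lowest control dog 60126 in the share of all counts. Without these libraries the lowest values were 0.0253% and 0.0754%, with 8 of 10 tumours below every control, and 7 of 10 as a share of the mitochondrial counts. Of the 77 tested nuclear genes with a single exon under 100 bp, 2 were higher and 2 lower (2.6% each, beside 10.1% and 11.1% of all genes). Their median log2 fold change was -0.06.

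The minus-strand tRNA at MT:5212-5279 had the largest fall. Its level was 0.515, 24 and 118 CPM (lowest, median and highest) in tumours and 8.07, 226 and 470.3 in controls. All 11 tumours lay below the control median and 3 below every control. The log2 fold change was -3.01 ± 0.71 (SE; edgeR adjusted p = 0.00576). Without dogs 60126 and 60749 the lowest control was at 18.1 CPM, 4 of 10 tumours lay below it, and the log2 fold change was -2.999 ± 0.59 (edgeR adjusted p = 0.00303).

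The tryptophan place at MT:4956-5023 was next. It ran over 10.7, 95.7 and 251 CPM in tumours and 41.4, 363 and 3790.3 CPM in controls, and the log2 fold change was -2.96 ± 0.64 (edgeR adjusted p = 0.00352). Each of the 11 tumours was again below the control median, although only 1 was below every control. The highest control was that of dog 60462, and the next was at 965 CPM. With a library left out the log2 fold change ran from -3.20 to -2.02 (edgeR adjusted p at most 0.00746). Without dogs 60126 and 60749 the lowest control was at 117 CPM and 6 of 10 tumours lay below it (-2.98 ± 0.57, edgeR adjusted p = 0.00260).

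The tRNA with the smallest p was the last of the map, at MT:15392-15457 on the minus strand, the place of the proline tRNA. It ran over 6.69, 14.8 and 46.0 CPM in tumours and 18.5, 50.4 and 351 CPM in controls. In 7 of 11 tumours it was below every control. The log2 fold change was -2.55 ± 0.50 (edgeR adjusted p = 0.00201). Without dogs 60126 and 60749, 9 of 10 tumours lay below every control and the log2 fold change was -2.57 ± 0.48 (edgeR adjusted p = 0.00248).

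Further minus-strand tRNAs separated the groups to a similar degree. At MT:5037-5105, the place of the alanine tRNA, 8 of 11 tumours lay below every control, with a log2 difference of -2.21 ± 0.54 (edgeR adjusted p = 0.00722). At MT:6891-6961, the place of a serine tRNA, medians were 11.8 CPM in tumours and 61.8 in controls, a log2 difference of -2.26 ± 0.52 (edgeR adjusted p = 0.00506). At MT:3768-3842, the place of the glutamine tRNA, the log2 fold change was -2.45 ± 0.63 (edgeR adjusted p = 0.00994). The smallest called falls were on the plus strand, at MT:11648-11707 (-1.35 ± 0.44, edgeR adjusted p = 0.0308) and MT:6966-7033 (-1.52 ± 0.43, edgeR adjusted p = 0.0169). Without dogs 60126 and 60749 the alanine place had -2.13 with 7 of 10 tumours below every control, and these 5 genes had log2 fold changes of -2.38 to -1.22 and edgeR adjusted p-values of 0.00880 to 0.0313.

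Both tRNAs that were not called also had negative fold changes. The first gene of the map, the tRNA at MT:1-69 in the place of the phenylalanine tRNA, had medians of 19.2 CPM in tumours and 38.9 in controls and a log2 difference of -1.17 ± 0.49 (edgeR adjusted p = 0.0892). The tRNA at MT:7735-7801, in the place of the lysine tRNA, had -0.74 ± 0.46 (edgeR adjusted p = 0.248).

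Neither rRNA passed the test between FFPE tumours and controls. The shorter ran over 3053, 33480.2 and 68964 CPM in tumours and 2504, 30915 and 51528 in controls (log2 fold change 0.21 ± 0.48, edgeR adjusted p = 0.781). The longer ran over 6335, 37489 and 105813 CPM in tumours and 5497, 36567 and 81626 in controls (0.17 ± 0.48, edgeR adjusted p = 0.825). The ranges overlapped almost in full. The values were 0.21 and 0.24 without dogs 60126 and 60749 (edgeR adjusted p = 0.716 and 0.751).

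Of the mRNAs, 1 of 13 was called, and it was the minus-strand mRNA in the place of ND6. It ran over 87.1, 412 and 2814 CPM in tumours and 215, 1000.4 and 11772 CPM in controls, with 10 of 11 tumours below the control median. The log2 fold change was -2.11 ± 0.72 (edgeR adjusted p = 0.0397). It was -2.09 ± 0.74, and did not pass, without dogs 60126 and 60749 (edgeR adjusted p = 0.0543). Without FFPE control 50315, the shallowest library, the log2 fold change was -0.98 (edgeR adjusted p = 0.236), and the call was lost in 17 of 34 alternative fits. The 12 mRNAs of the plus strand ran from -1.16 to 0.39, and their largest fall was at MT:11778-13598 (-1.16 ± 0.50, edgeR adjusted p = 0.0972), the place of ND5, which overlaps the ND6 place on the opposite strand.

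**Figure D4:**
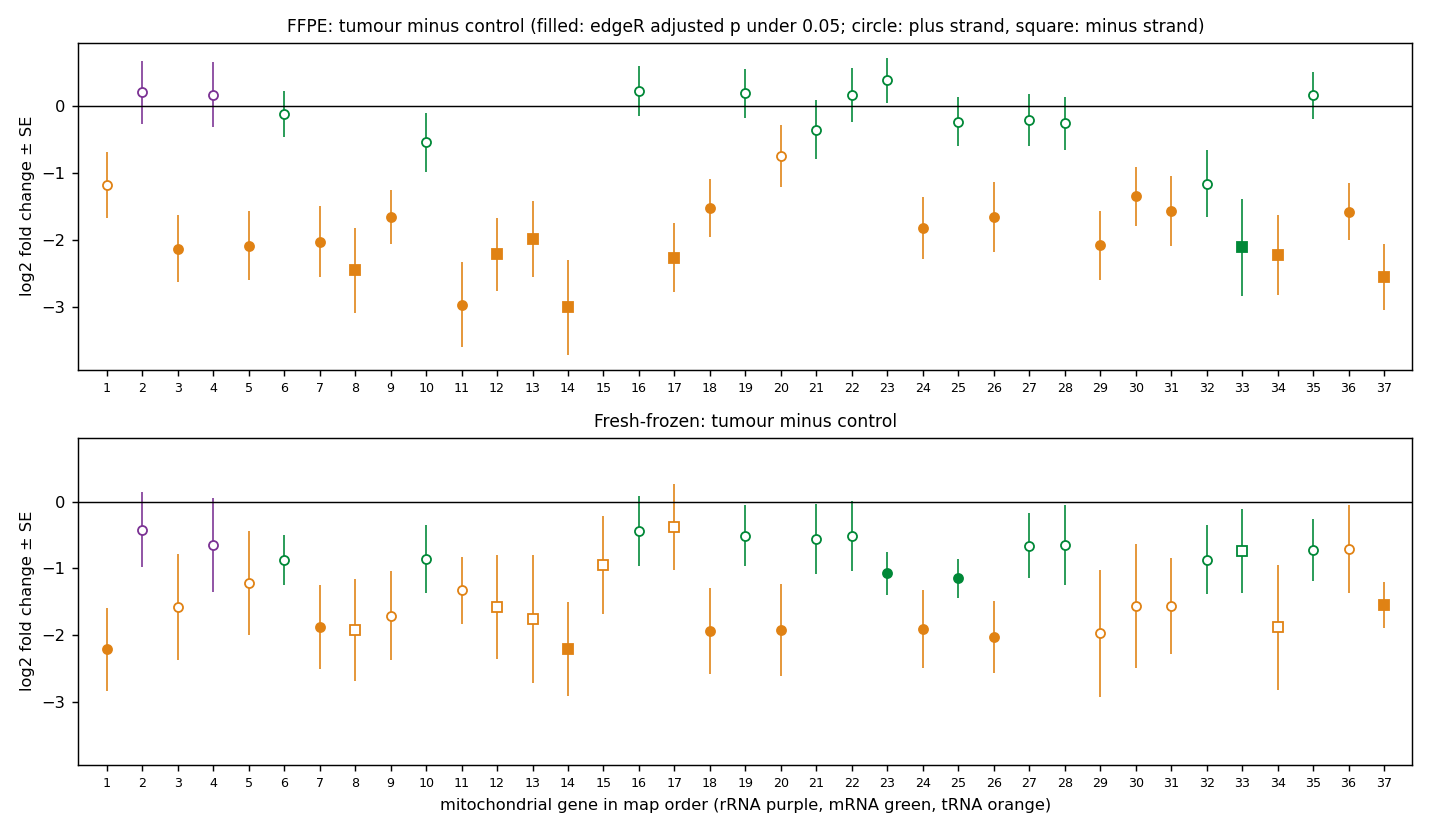
Log2 fold change of tumour over control with its standard error for each mitochondrial gene in map order, in FFPE (top) and fresh-frozen tissue (bottom), with filled symbols for adjusted p under 0.05 and squares for the minus strand. The tRNAs lie below 0 in both panels, and rRNAs and plus-strand mRNAs lie around 0 in FFPE and below 0 in fresh-frozen tissue.

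Dogs with FFPE tissue alone and dogs with both kinds of tissue were also examined apart. In the 6 tumours and 7 controls of dogs with FFPE tissue alone, the tRNA share did not overlap (0.0253% to 0.111% in tumours, 0.123% to 0.333% in controls), and 15 genes were called lower, all of them tRNAs, beside 5.51% of all genes in that fit. In the other 5 tumours and 3 controls the share overlapped, and 0 genes were called in edgeR, with a tRNA median of -1.93. An unadjusted edgeR p under 0.05 was found in 11 of the 37 genes, beside 2489 of all 15034. That fit called 1 of all 15034 genes (0.00665%, higher), so its count of 0 is no result about the mitochondrial genes. The edgeR fit with age as a covariate kept only FFPE libraries whose own label states an age. It left out dog 60461, whose age of 8.8 years is in its fresh-frozen label alone. That fit called 7 genes, where 0.358% of all genes were lower against 11.1% in the fit without age. Without the FFPE libraries of dogs 60126 and 60749, 19 tRNAs were called lower (8.2% of all genes were), with a tRNA median of -1.998, and 0 of 13 mRNAs were called.

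In fresh-frozen tissue the comparison of tumour with control gave lower values for all 37 genes, of which 10 passed the test. Of 37 genes tested, 10 were lower and 0 higher in edgeR's test over 15057 genes. Of all genes tested there, 12.2% were lower and 18.3% higher. The called genes were 8 of 22 tRNAs and 2 of 13 mRNAs, and neither rRNA. The median log2 fold change was -1.73 in tRNAs, -0.72 in mRNAs and -0.53 in rRNAs, beside 0.10 over all genes.

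The fresh-frozen tumour of dog 60127 had 23.3% of its counts in mitochondrial genes, while the other 5 tumours had 4.06% to 8.92% and the 6 controls 9.94% to 19.8%. Without it the 5 tumours lay below every control, and edgeR called 30 of 37 genes lower: both rRNAs, all 13 mRNAs and 15 of 22 tRNAs (13.4% of all genes were lower in that fit). The medians then were -1.66 in rRNAs, -1.30 in mRNAs and -2.13 in tRNAs. With another library left out the calls were 5 (tumour 60749, controls 60629 or 60126), 6 (tumours 60631, 60679 or 60461), 7 (controls 60459 or 60460), 9 (controls 60516 or 60462) or 13 (tumour 60636). Over these 12 fits 7.48% to 15.4% of all genes were lower.

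In both called mRNAs the library of dog 60127 lay within the range of the other tumours. The mRNA at MT:9496-9842 (347 bp), in the place of ND3 of complex I, had 1347, 1379, 1688, 1891, 1941 and 2015 CPM in tumours, with dog 60127 at 1941, and 2503, 2508, 2573, 3286, 4750.0 and 4926 CPM in controls. Every tumour was below every control. The log2 fold change was -1.15 ± 0.29 (edgeR adjusted p = 0.0114), and the call was kept in all 21 alternative fits.

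The mRNA at MT:8644-9427 (784 bp), in the place of COX3 of cytochrome c oxidase, ran over 6591, 10535 and 13640.2 CPM in tumours and 13405, 18778 and 26391 in controls. Of the 6 tumours 5 lay below every control. The log2 fold change was -1.07 ± 0.32 (edgeR adjusted p = 0.0230), and 3 of 21 alternative fits lost the call. The remaining mRNAs had log2 fold changes from -0.87 to -0.44 without passing the test. Among them was the COX2 place, the mRNA with the highest median per kilobase in frozen tissue, at 4402, 12801 and 33403 CPM in tumours and 17314, 19273 and 22676 in controls (-0.51 ± 0.46, edgeR adjusted p = 0.404).

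For each rRNA in frozen tissue, 4 of 6 tumours lay below every control, tumour 60636 lay within the range of the controls below their median, and the library of dog 60127 lay above every control. The shorter ran over 406, 949.6 and 4498 CPM in tumours and 1185, 1759 and 2688 in controls (log2 fold change -0.42 ± 0.56, edgeR adjusted p = 0.589). The longer ran over 1742, 3340.0 and 22649 CPM in tumours and 4582, 7242 and 19011 in controls (-0.65 ± 0.70, edgeR adjusted p = 0.490).

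Among the tRNAs of frozen tissue, 3 separated the groups completely. The share of all genes that do so was not computed, so this count has no background beside it. The proline place at MT:15392-15457 had 2.37, 6.14, 7.40, 8.42, 12.3 and 13.8 CPM in tumours and 16.9 to 30.03 CPM in controls. Its log2 difference was -1.54 ± 0.34 (edgeR adjusted p = 0.00698), and it was called in all 21 alternative fits. The phenylalanine place at MT:1-69 ran over 0.205, 0.515 and 1.99 CPM in tumours and 2.10, 2.91 and 7.52 in controls, from 2 to 50 counts a library in tumours and 32 to 201 in controls. Its log2 difference was -2.21 ± 0.62 (edgeR adjusted p = 0.0185). The tRNA at MT:9428-9495, in the place of the glycine tRNA, ran over 0.489, 3.56 and 9.94 CPM in tumours and 9.96, 13.7 and 17.5 in controls (-1.90 ± 0.59, edgeR adjusted p = 0.0270).

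The remaining 5 called tRNAs fell by 1.87 to 2.21 on the log2 scale and overlapped between groups. The cysteine place at MT:5212-5279 was among them, at 0.164, 0.443 and 1.23 CPM in tumours and 0.649, 1.65 and 6.66 in controls (-2.21 ± 0.70, edgeR adjusted p = 0.0309). It had only 2 to 31 counts a library in tumours and 12 to 178 in controls, and 8 of 20 alternative fits lost the call. The lysine place at MT:7735-7801 was at 1.19, 6.89 and 36.5 CPM in tumours and 18.6, 29.2 and 87.1 in controls, a log2 difference of -1.92 ± 0.69 (edgeR adjusted p = 0.0485), and 13 of 21 alternative fits lost that call. The tRNA share of counts was 0.00545%, 0.0126% and 0.0442% (lowest, median and highest) in tumours and 0.0325%, 0.0400% and 0.0532% in controls, with 4 of 6 tumours below every control. Of 42 tested short nuclear genes with a single exon under 100 bp, 8 rose and 0 fell in these tumours. The share that rose was close to the 18.3% of all genes that were higher, while 12.2% of all genes were lower. The median log2 fold change of the short nuclear genes was 1.06, beside 0.10 over all genes.

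The labels give no batch for the fresh-frozen libraries, but those of dogs 60126, 60127, 60461 and 60462 had the 4 lowest rRNA ratios, 0.193 to 0.329, against 0.387 to 0.600 in the other 8. Without these 4 libraries, which leaves 4 tumours and 4 controls, 8 genes were lower (5 mRNAs and 3 tRNAs), beside 6.42% of all genes. With that set as a covariate 13 were lower, beside 16.8% of all genes.

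FFPE and frozen libraries of a dog share its tissue, so the preservation comparison used the 8 dogs with both. The main fit took tissue (tumour or control) as a covariate and did not pair the libraries of a dog. A fit with the dog as a block, which does, is given after it. In the main fit the shorter rRNA and a part of the tRNAs were higher in FFPE tissue, and the longer rRNA and the mRNAs did not pass. Of the 37 genes, 8 were higher and 0 lower in FFPE in edgeR's test over 17097 genes, of which 2.81% were higher and 0.135% lower, 2.95% in all. They were 1 of 2 rRNAs, 0 of 13 mRNAs and 7 of 22 tRNAs. The median log2 fold change was 3.16 in rRNAs, 0.78 in mRNAs and 1.99 in tRNAs, beside -0.05 over all genes.

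The fit that blocks on the dog raised this to 17 genes (both rRNAs, 1 mRNA and 14 tRNAs, beside 3.34% of all genes). Without dogs 60126 and 60749, 16 were higher (both rRNAs, 1 mRNA and 13 tRNAs, beside 5.82%). With the block and without those dogs, 27 were higher: both rRNAs, 7 of 13 mRNAs and 18 of 22 tRNAs, beside 8.82% of all genes. Leaving out dog 60460, 60461, 60462, 60636 or 60679 gave 3 calls, and leaving out dog 60749 gave 13, and over the 8 fits that leave out a dog 0.976% to 4.16% of all genes were higher. Of the 181 nuclear genes with a single exon under 100 bp tested in the main fit, 69 rose (38.1%, beside 2.81% of all genes), 0 fell and the median was 2.50. What this has to do with the tRNA result was not tested.

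The shorter rRNA was higher in FFPE in 8 of 8 dogs. The log2 difference within a dog was 0.07 in dog 60126 and 1.37 in dog 60749, and 3.004, 4.45, 4.69, 4.88, 5.54 and 5.72 in the other 6. The log2 fold change was 3.96 ± 0.69 (edgeR adjusted p = 0.00579), and 4.35 without those 2 dogs (edgeR adjusted p = 0.00155). The longer rRNA was also higher in 8 of 8 dogs, by 0.16 to 4.16 on the log2 scale, but by less, at 2.35 ± 0.64 (edgeR adjusted p = 0.0562). It passed the test with the dog as a block (2.55 ± 0.51, edgeR adjusted p = 0.0182) and without those 2 dogs (2.72 ± 0.68, edgeR adjusted p = 0.0270). As a share of counts, the rRNAs were 1.11 and 1.73 times as high in FFPE in dogs 60126 and 60749 and 4.60 to 22.4 times in the others.

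**Figure D5:**
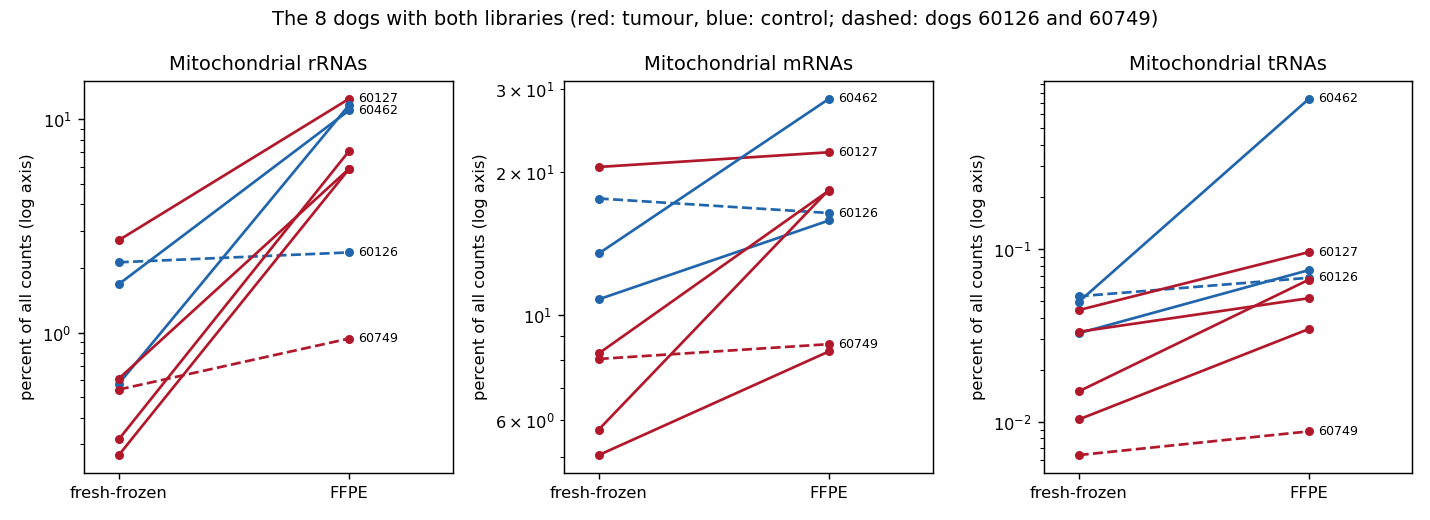
Percent of all counts (log axis) in the mitochondrial rRNAs, mRNAs and tRNAs in the fresh-frozen and the FFPE library of the 8 dogs with both, tumours in red and controls in blue. The rRNA share rises 4.60 to 22.4 times in 6 dogs and 1.11 and 1.73 times in dogs 60126 and 60749, which are dashed.

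The mRNA share in FFPE was 0.932 to 3.21 times the fresh-frozen share. The mRNA with the largest difference was that at MT:3914-4957, the place of ND2 of complex I, at 1.73 ± 0.50 (edgeR adjusted p = 0.0712). With the block it was the 1 mRNA that passed (1.69 ± 0.37, edgeR adjusted p = 0.0267), as it was without dogs 60126 and 60749 (1.99 ± 0.54, edgeR adjusted p = 0.0377). The smallest difference among the mRNAs was that at MT:5349-6893 (1545 bp), the place of COX1 of cytochrome c oxidase, at 0.13 ± 0.46 (edgeR adjusted p = 0.910), with 5 of 8 dogs higher in FFPE.

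The tRNAs differed widely in how far they were raised. The cysteine place at MT:5212-5279 had the largest value, 4.66 ± 0.90 (edgeR adjusted p = 0.00898), and was higher in 8 of 8 dogs, by 0.27 to 6.86 on the log2 scale. The phenylalanine place at MT:1-69, beside the shorter rRNA, had 3.57 ± 0.68 (edgeR adjusted p = 0.00880), and the valine place at MT:1024-1090, between the rRNAs, had 3.05 ± 0.72 (edgeR adjusted p = 0.0261). The smallest called difference was that of the methionine place at MT:3844-3913, at 2.21 ± 0.58 (edgeR adjusted p = 0.0457). These 4 had log2 fold changes of 5.07, 3.96, 3.35 and 2.40 without dogs 60126 and 60749, with edgeR adjusted p-values of 0.00152 to 0.0160.

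The other 15 tRNAs did not pass in the main fit, with log2 fold changes from -0.04 to 2.93 and a median of 1.72, and 12 of them were above 1. Both of the smallest values were on the minus strand. The tyrosine place at MT:5280-5347, next to the cysteine place on the same strand, had 0.15 ± 0.93 (edgeR adjusted p = 0.950), and was higher in FFPE in 3 of 8 dogs. The serine place at MT:6891-6961, which begins within the COX1 place on the opposite strand, had -0.04 ± 0.64 (edgeR adjusted p = 0.981), with 4 of 8 dogs higher. Of the 8 minus-strand tRNAs 1 was called in the main fit, against 6 of the 14 of the plus strand. Without dogs 60126 and 60749 the counts were 2 and 11. With the dog as a block they were 4 and 10, and 5 and 13 with the block and without those dogs.

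The tumour difference itself was compared between preservations by the interaction of tissue and preservation. No gene passed: 0 of 37 mitochondrial genes and 0 of 15714 genes were called in edgeR, and DESeq2 and limma voom called 0 of the 37. An unadjusted edgeR p under 0.05 was found in 2 of the 37, beside 575 of the 15714 genes. These 2 were the COX3 place (interaction 1.56 ± 0.51, unadjusted p = 0.00392) and the serine place at MT:6891-6961 (-1.78 ± 0.86, unadjusted p = 0.0451), both with an edgeR adjusted p of 1. The class medians of the interaction were 0.81 in rRNAs, 0.78 in mRNAs and -0.21 in tRNAs. In simulated counts with these group sizes the interaction test found 47% of genes changed 4-fold and 3% of those changed 2-fold. The changed genes were drawn from all genes tested, and the libraries of a dog were simulated as independent. These shares are therefore not the power for the mitochondrial genes.

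Over the tumour comparisons and the preservation comparison, 25 of the 37 genes were called at least once and 12 were not. The 12 were 1 rRNA, 10 mRNAs and 1 tRNA, that of the tyrosine place. Of all genes tested, 21.1% were called in either direction in FFPE tumours, 30.5% in fresh-frozen tumours and 2.95% between preservations. The share of all genes called at least once over these fits was not computed, so the count of 25 has no background beside it.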

How the data were processed

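The submitters prepared forward-stranded total RNA libraries with 12 nt molecular identifiers and sequenced them in pairs, per the labels' protocols. The authors deposited raw counts per gene, made with featureCounts 1.6.0 on the CanFam3.1 annotation of Ensembl release 100, with strand and a mapping quality of at least 10, per the file headers. The headers set no option for fragments that touch 2 genes, so those of neighbouring mitochondrial genes on a strand were left out of the counts, and reads shared with nuclear copies may be lost. Whether identifiers were collapsed is not stated.

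Counts were tested with edgeR 4.0.16 (R 4.3.3; filterByExpr by group, TMM, robust quasi-likelihood) over all genes, with Benjamini-Hochberg adjustment. DESeq2 1.42.0 and limma 3.58.1 served as alternatives, beside other scalings, thinning and sample sets. The dog pairs the FFPE and frozen libraries, by the labels, and 7 of 8 dogs had correlated deviations above 0.1. In dogs 60126 and 60461 the FFPE library correlated more with another dog's frozen library (r = 0.349 and 0.375) than with its own (0.286 and 0.127). Tumour and preservation tests were checked on simulated data, where 77%, 58% and 64% of genes changed 4-fold were found in FFPE tumour, frozen tumour and preservation fits. Of genes changed 2-fold, these fits found 20%, 4% and 17%. The changed genes were drawn from all genes tested, and every library was simulated as independent. Genes described singly were both rRNAs, the largest and smallest called changes, the highest and lowest of each class, and minus-strand genes. Members, lists and alternatives were chosen with earlier results of these data known. Marker and nuclear respiratory chain lists could not be matched to the identifiers and are not used here.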

Additional observations from a re-analysis of the deposited data

Results flagged for a closer look

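In groups of 4 to 10 libraries, 93 sets of values were examined for a library whose gap to the next exceeded Dixon's 95% limit, and 6 were found, while chance gives about 1 in 20. The fresh-frozen tumour of dog 60127 accounted for 3 of them: 23.3% of its counts were mitochondrial (next highest tumour 8.92%), 2.71% were from the rRNAs (next 0.609%) and 20.5% from the mRNAs (next 8.28%). The FFPE control of dog 60462 accounted for 2: 40.3% of its counts were mitochondrial (next 27.5%) and 0.739% were from the tRNAs (next 0.333%). In fresh-frozen controls the tRNA at MT:4956-5023 stood at a log2 CPM of 5.07 in dog 60460, with the next library at 4.85, a small gap in a narrow group.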

How the results depend on the processing

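The calls in FFPE tumours were 0 in edgeR in the 8 dogs with both kinds of tissue, where 0% of all genes were lower. At an unadjusted edgeR p under 0.05 there were 11, beside 2489 of all 15034 genes. Other settings also changed the calls in FFPE tumours. They were 7 with age as a covariate (0.358% of all genes) and 11 with every library thinned to the smallest total (12.8%). Thinning leaves fewer genes and counts to test. With a library left out they ran from 17 to 20 (8.19% to 13.8% of all genes). The calls in fresh-frozen tumours were 22 in limma voom, where 19.5% of all genes were lower, and 5 to 30 with a library left out (7.48% to 15.4%). The calls for FFPE over fresh-frozen tissue were 4 without a filter on low counts (1.48% of all genes were higher) and 16 in DESeq2 (5.14%). They were 25 over all libraries (17.6%) and 16 without dogs 60126 and 60749 (5.82%). In edgeR they were 0 in tumour dogs alone (0.504%) or in control dogs alone (0%), with fewer samples. With a dog left out they were 3 to 13 (0.976% to 4.16%). Other causes were not tested. Alternatives that concern dogs 60126 and 60749 were chosen after seeing the data. In that comparison the replicate block, which pairs a dog's libraries, gave 17 calls, and 27 without those dogs, and in the interaction the block gave 0. With library totals alone as the scaling, the median of all genes moved from 0.02 to 0.15 in FFPE tumours and from 0.10 to 0.24 in fresh-frozen tumours, and the share of calls that were higher from 47.6% to 61.9% and from 60.0% to 71.3%, while the tRNA medians were -1.93 and -1.63.

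Reversals of sign occurred in genes that were not called. In FFPE tumours the shorter rRNA had -0.016 in limma voom and -0.43 in the dogs with both kinds of tissue, and the longer -0.68 in those dogs, -0.061 with breed as a covariate and -0.044 to 0.365 with a library left out (negative without FFPE tumour 44331). In those dogs the mRNAs at MT:7034-7717, MT:7964-8644 and MT:8644-9427 had -0.66, -0.81 and -0.60, and with age as a covariate the first and second of them had -0.22 and -0.30. The mRNA at MT:9496-9842 had 0.17 in limma voom, 0.55 without those dogs and -0.338 to 0.135 with a library left out (positive without FFPE control 60462). For FFPE over fresh-frozen tissue the tRNA at MT:3768-3842 had -0.35 in limma voom. The tRNA at MT:5280-5347 had -0.0897 without a filter, -1.78 in limma voom, -0.60 with the replicate block, -0.64 with the block and without dogs 60126 and 60749, and -0.483 to 0.327 with a dog left out. The tRNA at MT:6891-6961 had 0.0295 with RLE factors, 0.0237 in DESeq2, 0.97 in control dogs, 0.14 over all libraries, 0.0599 when thinned, and -0.240 to 0.248 with a dog left out.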
